A study of Mus musculus with 9 samples.

Results

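The heat shock proteins and their co-chaperones were followed in dendritic cells (DCs) of the mouse spleen with and without the transcription factor C/EBPβ. All genes whose symbol begins with Hspa, Hspb, Hspd, Hspe, Hsph, Hsp90 or Dnaj, or with Bag and a digit, were taken from probes that name exactly 1 gene, with the brightest probe standing for a gene. This gave 74 of the 22180 genes tested, of which 50 were placed in the cytosol (with the nucleus), 15 in the endoplasmic reticulum (ER) and 9 in mitochondria, from general knowledge of the proteins. The choice used names and brightness over all 9 samples, not the difference between genotypes. It was made with earlier results of these data known.

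Total RNA from DCs of naive mice on the C57BL/6 background, sorted for CD11c and MHC class II, was hybridised to 9 arrays, 1 per sample. The 6 control samples carried intact C/EBPβ (C/EBPbeta+/+), and the sources name both C57BL/6 and Cre-only CD11c.Cre mice (CD11c-Cre-eGFP) without saying which control came from which. The 3 knockout samples (C/EBPbeta-/-) came from CD11c.Cre x C/EBPβflox/flox mice, in which the Itgax (CD11c) promoter drives Cre, so that other CD11c-expressing cells can lose the gene too. The labels used here give no age and do not say that replicates are separate animals. A p-value here therefore sets a group difference only against the scatter among these samples, and that scatter may be technical.

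Heat shock proteins bind unfolded stretches of other proteins. Hsp70 proteins take them up and release them in an ATP-driven cycle that J proteins (Hsp40, Dnaj genes) start and that nucleotide exchange factors of the Hsp110 and BAG groups end, while Hsp90 proteins act later on a narrower set of clients such as kinases and receptors. Cytosolic stress raises transcription of many of these genes through heat shock factor HSF1, unfolded proteins in the ER act through ATF6, XBP1 and ATF4, and the Hsp60 and Hsp10 chamber folds proteins imported into mitochondria. In DCs, chaperones are also known for handling antigens, and the ER Hsp90, Hsp90b1, for folding Toll-like receptors and integrins.

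Values are log2 intensities normalized by the authors, a change is the knockout mean minus the control mean on that scale, and an SD or SE is given with n = 6 controls and n = 3 knockouts. Array medians lay between 5.49 and 5.56. Cebpb itself lay between 6.64 and 7.15 in the controls and between 5.37 and 5.60 in the knockouts (change -1.35, SE 0.11, adjusted p = 0.00074 by limma). Of 11 DC markers, 9 were measured, and their mean difference from the control average ran from -0.0900 to 0.0983 in controls and from -0.126 to -0.0148 in knockouts, with none past the threshold. Knockout replicate 3 stood apart in B cell markers (8 of 9 measured), whose mean was 1.02 above the control average there, against -0.139 and 0.255 in the other knockouts and -0.0738 to 0.144 in controls.

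No member passed an adjusted p of 0.05 in either direction. Of all genes tested, 0.906% passed, 0.415% as higher and 0.491% as lower in knockouts. At an unadjusted p of 0.05, 16 of 74 members were higher in knockouts (21.6%, against 5.50% of all genes) and 5 were lower (6.76%, against 8.82%). Of those higher, 14 of 50 were cytosolic, 1 of 15 was in the ER (Dnajb9) and 1 of 9 was mitochondrial (Hspe1), and the lower ones were Bag4, Dnajc27, Dnajc9 and Hspb6 in the cytosol and Dnaja3 in mitochondria. The median change over the members was -0.014, as over all genes, with 32 members above 0 and 42 below. The mean over the 74 members, each taken relative to its control mean, ran from -0.0359 to 0.0405 in controls and was 0.183, 0.0687 and -0.0562 in the knockouts, above the controls in replicates 1 and 2 and below them in replicate 3.

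**Figure D1:**
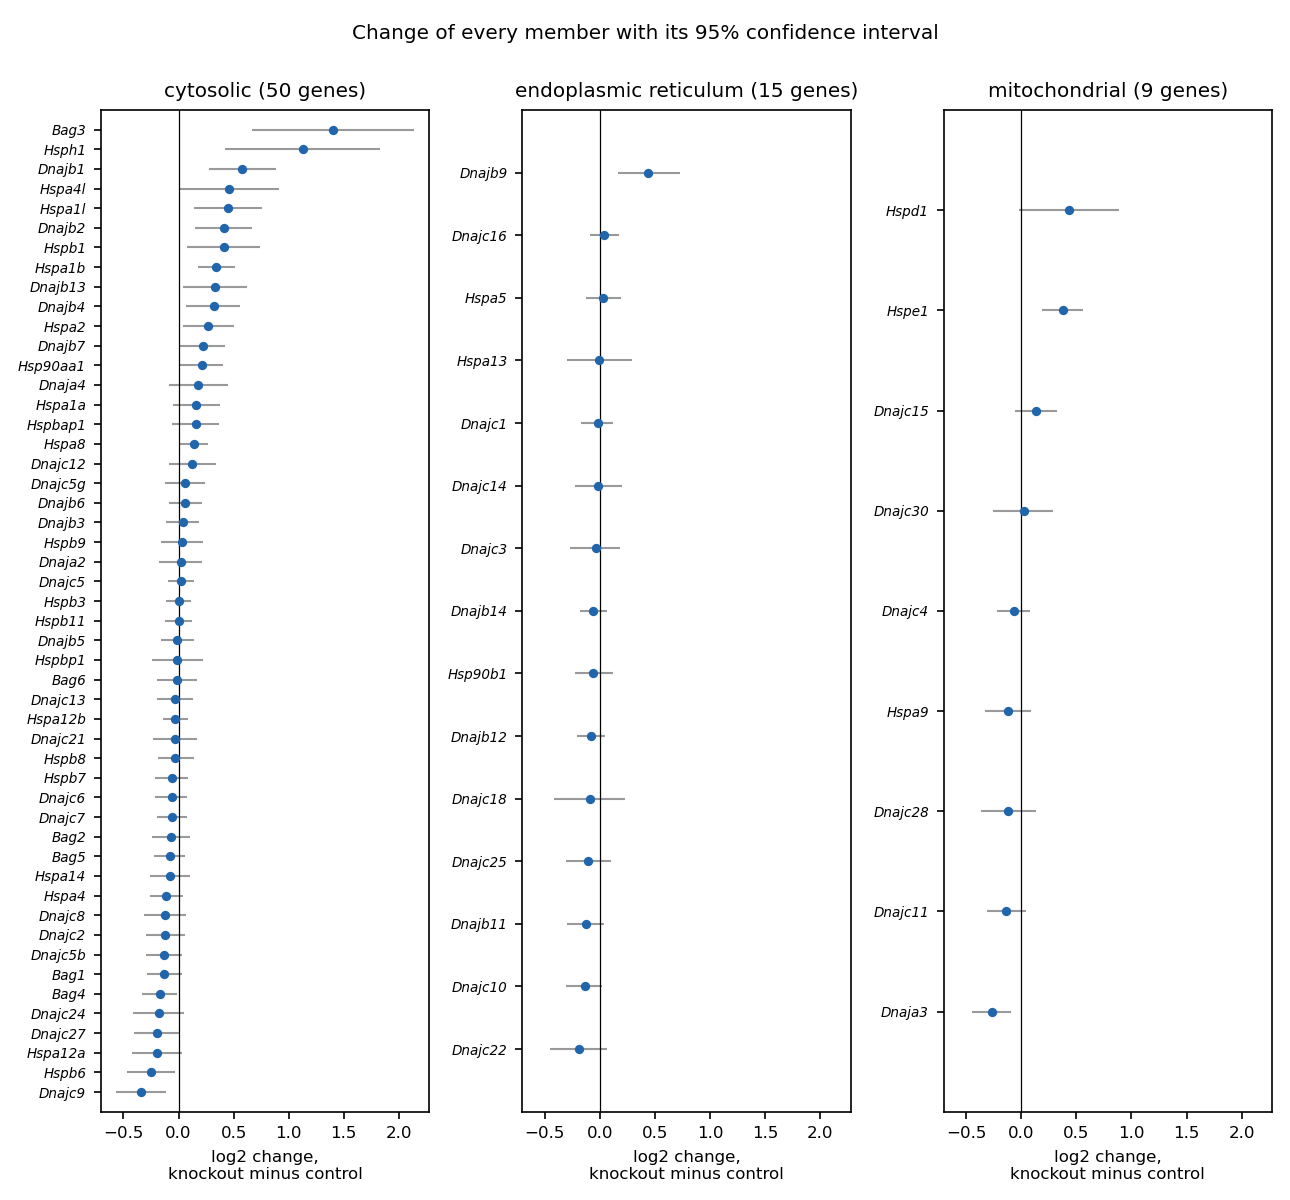
Change of each of the 74 members in knockout DCs (horizontal axis, log2 intensity, knockout minus control) with its 95% confidence interval, for cytosolic, ER and mitochondrial members. Cytosolic changes ran from -0.34 (Dnajc9) to 1.40 (Bag3). Within 0.2 of no change lay 14 of the 15 ER members, and 18811 of all 22180 genes.

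Bag3 and Hsph1, cytosolic exchange factors of Hsp70, had the largest changes and the widest spread between knockout samples of all members. Bag3, which couples Hsp70 to small heat shock proteins and to selective autophagy, read 7.73, 8.03, 7.86, 7.99, 7.88 and 7.84 in control replicates 1 to 6 and 10.42, 9.14 and 8.31 in knockout replicates 1 to 3. All knockout samples lay above all controls, but the SD was 1.07 in knockouts and 0.107 in controls. The change was 1.40 (SE 0.33, 2.64-fold, adjusted p = 0.082 by limma).

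Hsph1, the Hsp110 protein that speeds nucleotide exchange and helps to dissolve aggregates, ran from 8.94 to 9.52 in controls with a median of 9.22, and read 11.28, 10.38 and 9.32 in knockout replicates 1 to 3. Replicates 1 and 2 were above all controls, and replicate 3 was among them. The change was 1.13 (SE 0.32, 2.18-fold, adjusted p = 0.13 by limma). Its relative Hspa4l split in the same manner, with controls from 7.30 to 7.56 (median 7.37) and knockouts at 8.47, 7.89 and 7.20, where replicate 3 was below every control (change 0.46, SE 0.20, adjusted p = 0.34 by limma). The other Hsp110 gene, Hspa4, changed by -0.11 with knockouts at 10.71, 10.70 and 10.45 against controls from 10.67 to 10.80.

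The remaining BAG genes did not share the values of Bag3. The changes of Bag1, Bag2, Bag4, Bag5 and Bag6 ran from -0.17 (Bag4) to -0.01 (Bag6). Bag1, an exchange factor that links Hsp70 to the proteasome, read 7.92, 7.92 and 7.68 in knockouts against controls from 7.86 to 8.06. Bag6, which guards stray membrane proteins, read 9.36, 9.40 and 9.60 in knockouts, within the control range of 9.32 to 9.63.

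**Figure D2:**
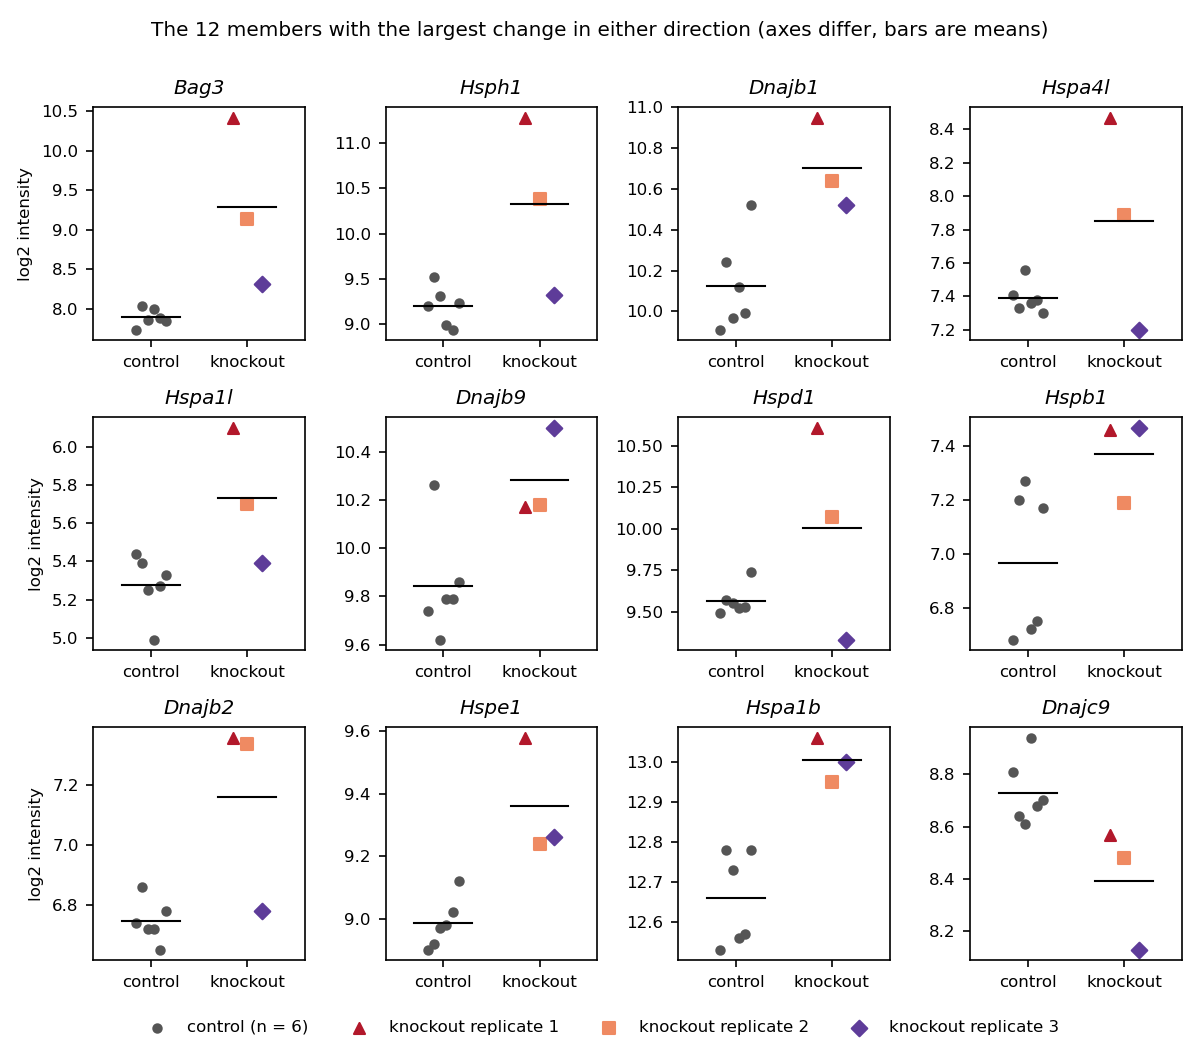
Log2 intensity (vertical axis, scale differing by panel) of the 12 members with the largest change in either direction in each of 6 control and 3 knockout samples, with group means as bars and knockout replicates marked apart. Bag3 reads 10.42, 9.14 and 8.31 in knockout replicates 1 to 3, each above all controls. Hsph1, Hspa4l, Hspa1l, Hspd1 and Dnajb2 have replicates 1 and 2 above all controls, with replicate 3 among or below them. Hspa1b lies between 12.95 and 13.06 in all knockouts.

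Among cytosolic J proteins, Dnajb1, the chief stress-induced partner of Hsp70, read 9.91, 10.24, 9.97, 10.12, 9.99 and 10.52 in controls and 10.95, 10.64 and 10.52 in knockouts. All knockouts were above all controls, knockout replicate 3 by less than 0.01 over control replicate 6. The change was 0.58 (SE 0.14, 1.49-fold, adjusted p = 0.081 by limma).

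Dnajb2, a J protein that also binds ubiquitin, ran from 6.65 to 6.86 in controls (median 6.73) and read 7.36, 7.34 and 6.78 in knockouts. Replicate 3 again lay within the controls, and the change was 0.41 (SE 0.12, adjusted p = 0.13 by limma). Dnajb4, close in sequence to Dnajb1, read 7.13, 7.02 and 7.03 against a control range of 6.46 to 6.99, so that the groups did not overlap (change 0.32, adjusted p = 0.22 by limma).

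Dnaja1, an abundant cytosolic J protein, has here only a probe that also names Mir207, a microRNA gene, and is therefore no member. That probe ran from 9.01 to 9.30 in controls and read 9.79, 9.61 and 9.45 in knockouts, with no overlap. In a fit over all 34468 probes its change was 0.49 (SE 0.09, adjusted p = 0.047 by limma), and 0.339% of all probes were called higher in that fit. It was singled out after its values were seen, and the probe cannot tell the 2 genes apart. Dnaja2, of the same type, read 10.17, 10.21 and 9.79 against controls from 9.96 to 10.12, a change of 0.02.

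Dnajc9, a J protein that also escorts histones H3 and H4, had all knockouts below all controls. It ran from 8.61 to 8.94 in controls with a median of 8.69 and read 8.57, 8.48 and 8.13 in knockouts, a change of -0.34 (SE 0.10, adjusted p = 0.16 by limma), or -0.20 without knockout replicate 3 (adjusted p = 0.40 by limma). Of 6 proliferation markers, 5 were measured, and their mean lay -0.259, -0.540 and -0.970 from the control average in knockout replicates 1 to 3 against -0.127 to 0.159 in controls, with Ccna2 past the threshold (change -0.59, adjusted p = 0.017 by limma). The part of this difference in the Dnajc9 values was not tested. Dnajc7, a scaffold between Hsp70 and Hsp90, read 10.77, 10.77 and 10.67 against controls from 10.69 to 10.92 (change -0.06, SE 0.06, adjusted p = 0.72 by limma).

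The Hsp70 proteins themselves had smaller changes than Bag3 and Hsph1. Hspa1b, stress-inducible Hsp70, ran from 12.53 to 12.78 in controls (median 12.65) and read 13.06, 12.95 and 13.00 in knockouts. The groups did not overlap and the knockouts lay close together (SD 0.0554), with a change of 0.34 (SE 0.08, 1.27-fold, adjusted p = 0.062 by limma).

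Its near-identical copy Hspa1a ran from 12.88 to 13.28 in controls and read 13.21, 13.24 and 13.49 in knockouts, so that 2 of the 3 lay within the controls (change 0.16, SE 0.10, adjusted p = 0.49 by limma). A probe that names both copies read 10.15, 9.81 and 9.69 in knockouts against 8.93 to 9.76 in controls (change 0.47, adjusted p = 0.28 by limma over all probes). Signal from the copies may not be fully told apart on an array, and both single-gene probes were near the upper end of the scale, where the highest value on any array was 13.87.

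Hspa8, the constitutive Hsp70, ran from 12.95 to 13.03 in controls and read 13.23, 13.16 and 12.99 in knockouts (change 0.14, SE 0.06, adjusted p = 0.35 by limma). This probe, like those of Hspa1a and Hspa1b, was near the upper end of the scale. The other single-gene probes of Hspa8 changed by 0.12 to 0.15, each with replicates 1 and 2 above all controls and replicate 3 below them. A probe that also names Snord14e, a small nucleolar RNA gene, changed by -0.19. It read 11.86, 11.91 and 12.38 in knockouts against 12.07 to 12.41. Hspa1l and Hspa2, best known from the testis, gave 6.10, 5.70 and 5.39 against controls from 4.99 to 5.44, and 7.30, 7.04 and 6.72 against controls from 6.67 to 6.84. Both again had replicates 1 and 2 above all controls and replicate 3 within them, with a change of 0.45 for Hspa1l (SE 0.14, adjusted p = 0.17 by limma), whose second probe changed by -0.01, and of 0.27 for Hspa2 (adjusted p = 0.27 by limma).

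Hsp90aa1, the inducible cytosolic Hsp90, read 11.03, 10.77 and 10.86 in knockouts against controls from 10.53 to 10.87, with 2 of the 3 inside the control range (change 0.21, SE 0.09, adjusted p = 0.31 by limma). Hsp90ab1, its constitutive partner, was not analysed here. Of the small heat shock proteins, Hspb1 ran from 6.68 to 7.27 in controls and read 7.46, 7.19 and 7.47 in knockouts (change 0.41, SE 0.15, adjusted p = 0.24 by limma), and Hspb6 read 8.03, 7.66 and 7.90 against 7.97 to 8.24 (change -0.25, adjusted p = 0.28 by limma). The probes of 12 cytosolic members, among them Hspa1l, Dnajb7, Dnajb13 and Hspb8, were dimmer than the median gene at 5.93, where a change is compressed.

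HSF1 binds inverted repeats of GAA, and the 250 bases before each gene's start in RefSeq (build GRCm38.p6) were searched on both strands for 3 units, GAANNTTCNNGAA or TTCNNGAANNTTC, and for 2 units, GAANNTTC or TTCNNGAA, which the longer motif contains. The 3-unit motif was found before 0.514% of 27025 genes and before 3 of the 61 members in that table (4.92%), namely Hspd1, Hspe1 and Dnajb6. The matches of Hspd1 and Hspe1 are the same bases, in a stretch that precedes both genes, so these members are not independent. The 2-unit motif was found before 14.5% of genes and 13 members (21.3%). These were Hspd1, Hspe1, Dnajb6, Hsph1, Hspa1a, Hspa1b, Hspb1, Dnajb4, Dnaja4, Hspb3, Hspb6, Dnajc10 and Dnajc27. Their changes ran from -0.25 (Hspb6) to 1.13 (Hsph1), with Dnajc27 at -0.20, Dnajc10 at -0.14 and Dnajb6 at 0.06. Bag3 and Dnajb1 were not among the members with a match. For 13 members there was no window to search, so a gene without a match may lack a window. The search also took only these exact letters within 250 bases. A missing match therefore does not show that a gene lacks a heat shock element. A match describes letters only, not a bound site. The windows of Hsph1 (chr5:149636337-149636586, minus strand) and Hspa1b (chr17:34959239-34959488, minus strand) are shown with the match in capitals, since Hsph1 had the largest change of the Hsp110 genes and Hspa1b was the Hsp70 gene whose groups did not overlap.
Hsph1: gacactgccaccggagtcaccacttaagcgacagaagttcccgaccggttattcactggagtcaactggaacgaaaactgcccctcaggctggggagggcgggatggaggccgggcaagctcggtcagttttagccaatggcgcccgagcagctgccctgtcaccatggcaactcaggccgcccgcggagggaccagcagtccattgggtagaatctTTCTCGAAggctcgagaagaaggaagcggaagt
Hspa1b: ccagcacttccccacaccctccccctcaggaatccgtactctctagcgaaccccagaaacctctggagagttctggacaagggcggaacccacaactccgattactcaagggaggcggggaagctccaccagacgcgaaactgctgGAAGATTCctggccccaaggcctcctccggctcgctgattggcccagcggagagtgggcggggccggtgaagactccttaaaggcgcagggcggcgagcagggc

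Among the mitochondrial members, the genes of the Hsp60 chamber had the largest positive changes, and neither passed the threshold. Hspe1 (Hsp10, the lid of the chamber) read 8.90, 8.92, 8.97, 8.98, 9.02 and 9.12 in controls and 9.58, 9.24 and 9.26 in knockouts. All knockouts were above all controls, with a change of 0.38 (SE 0.08, 1.30-fold, adjusted p = 0.067 by limma). Hspd1 (Hsp60, the chamber wall) read 9.49, 9.57, 9.55, 9.52, 9.53 and 9.74 in controls and 10.61, 10.07 and 9.33 in knockouts. Replicates 1 and 2 were above all controls and replicate 3 below all of them, so that the change of 0.43 (SE 0.21, adjusted p = 0.37 by limma) had a 95% confidence interval from -0.02 to 0.89.

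Hspe1 and Hspd1 lie head to head on chromosome 1, and the bases between their starts are shown because this single stretch precedes both genes. Hspe1 starts at 55088148 on the plus strand and the nearer of 2 Hspd1 starts in the table is at 55087932 on the minus strand. The 215 bases between (chr1:55087933-55088147, read on the plus strand towards Hspe1) hold 2 overlapping matches to the 3-unit motif, 1 in each orientation, marked together in capitals.
Hspe1: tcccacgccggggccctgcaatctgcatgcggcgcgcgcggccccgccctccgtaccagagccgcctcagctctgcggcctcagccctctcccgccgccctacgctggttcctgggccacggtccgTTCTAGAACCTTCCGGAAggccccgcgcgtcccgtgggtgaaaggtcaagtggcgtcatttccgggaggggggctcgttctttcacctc

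Hspa9 (mortalin), the mitochondrial Hsp70 and motor of protein import, ran from 10.77 to 10.88 in controls and read 10.88, 10.81 and 10.39 in knockouts, where replicate 3 was below every control (change -0.12, SE 0.10, adjusted p = 0.65 by limma). Its J protein Dnaja3 read 8.04, 7.84 and 7.75 against controls from 7.97 to 8.26, with replicates 2 and 3 below all controls (change -0.27, SE 0.08, adjusted p = 0.16 by limma). The 2 dimmer probes of Dnaja3 changed by 0.16 and 0.07, and the mean of its probes by -0.01 (adjusted p = 0.96 by limma), so the probes disagree in direction. Dnajc4 read 8.74, 8.74 and 8.82, within its control range of 8.73 to 9.02 (change -0.07, SE 0.07, adjusted p = 0.70 by limma). The changes of Dnajc11, Dnajc15, Dnajc28 and Dnajc30 ran from -0.14 to 0.13. The median over the 9 was -0.072, against -0.014 over all genes.

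Changes between the group means were within 0.2 for 14 of the 15 ER members, and for 18811 of all 22180 genes. In knockout replicate 3, 10 of the 15 lay below every control, against 23.7% of all genes. Hspa5 (BiP), the ER Hsp70 and the classical readout of the unfolded protein response, read 11.12, 11.36, 11.03, 11.27, 11.21 and 11.21 in controls and 11.22, 11.21 and 11.25 in knockouts. All knockouts lay inside the control range, and the change was 0.03 (SE 0.07, adjusted p = 0.92 by limma) with a 95% confidence interval from -0.13 to 0.19. Hsp90b1 ran from 12.05 to 12.21 in controls and read 12.23, 12.12 and 11.86 in knockouts, with replicate 1 just above and replicate 3 below the controls (change -0.06, SE 0.08, adjusted p = 0.82 by limma, interval -0.23 to 0.12). Dnajc3, a BiP partner that also restrains the eIF2α kinase PERK, ran from 9.97 to 10.32 and read 10.22, 10.28 and 9.90 in knockouts (change -0.04, SE 0.10, adjusted p = 0.89 by limma).

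Dnajb9 (ERdj4), an XBP1-dependent BiP partner in ER-associated degradation, had the largest change of the class. It read 9.74, 10.26, 9.62, 9.79, 9.79 and 9.86 in controls and 10.17, 10.18 and 10.50 in knockouts, a change of 0.44 (SE 0.13, adjusted p = 0.14 by limma). All knockouts were above the other 5 controls, but replicates 1 and 2 were below control replicate 2. The remaining 11 ER members changed by -0.19 (Dnajc22) to 0.04 (Dnajc16). Among them were Dnajb11, a BiP partner that delivers nascent chains, at -0.13, and Dnajc10, a disulfide reductase, at -0.14. The placement of a few J proteins, such as Dnajc22 and Dnajc16, is less certain.

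Plasma cells are rich in ER chaperones, and all 8 plasma cell markers were measured. Their mean was 0.324, 0.384 and 0.457 above the control average in knockout replicates 1 to 3 against -0.100 to 0.143 in controls, with a median change of 0.17. Much of that mean came from Jchain, which alone passed the threshold (change 1.89, adjusted p = 0.046 by limma) and read 8.63, 9.76 and 8.85 in knockouts against 6.52 to 8.06 in controls. The other 7 markers changed by -0.04 (Txndc5) to 0.54 (Mzb1). The changes of Hspa5 and Hsp90b1 were 0.03 and -0.06, and the part of plasma cell RNA in the Dnajb9 values was not tested. In RNA of a sorted population, fewer cells of a type and less RNA per cell cannot be told apart.

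The ER stress element, which ATF6 recognises together with NF-Y, was searched as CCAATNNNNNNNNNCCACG or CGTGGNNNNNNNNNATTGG in the same windows. It was found before 0.130% of genes and before 3 of 61 members (4.92%), the ER members Hspa5, Hsp90b1 and Dnajc3. Their windows (chr2:34771840-34772089, plus strand, chr10:86705445-86705694, minus strand, and chr14:118937682-118937931, plus strand) are shown with the matches in capitals, since these 3 genes share the element and had the small changes given above.
Hspa5: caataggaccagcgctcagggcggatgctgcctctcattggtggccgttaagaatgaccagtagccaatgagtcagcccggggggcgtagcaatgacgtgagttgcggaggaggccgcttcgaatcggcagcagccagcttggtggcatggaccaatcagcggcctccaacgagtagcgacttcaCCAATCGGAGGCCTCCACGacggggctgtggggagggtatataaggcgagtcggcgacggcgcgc
Hsp90b1: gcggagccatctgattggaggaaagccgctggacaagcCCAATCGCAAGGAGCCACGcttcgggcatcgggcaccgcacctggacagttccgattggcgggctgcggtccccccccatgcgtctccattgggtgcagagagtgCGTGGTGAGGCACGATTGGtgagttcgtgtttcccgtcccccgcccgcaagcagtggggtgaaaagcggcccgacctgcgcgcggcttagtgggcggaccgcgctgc
Dnajc3: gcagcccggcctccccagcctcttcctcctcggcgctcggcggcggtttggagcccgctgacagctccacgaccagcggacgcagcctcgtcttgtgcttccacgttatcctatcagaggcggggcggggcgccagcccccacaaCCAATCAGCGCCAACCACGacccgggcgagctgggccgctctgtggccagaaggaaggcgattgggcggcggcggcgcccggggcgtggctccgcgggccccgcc

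The samples of the knockout group differed among themselves across the members. In knockout replicate 1, 23 of 74 members (31.1%) were above every control, against 14.9% of all genes, and 5 (6.76%) were below every control, against 17.8%. In replicate 2, 15 members (20.3%) were above, against 13.7% of all genes, and 8 (10.8%) below, against 19.1%. In replicate 3 the balance was the other way, with 11 members (14.9%) above, against 17.1% of all genes, and 32 (43.2%) below, against 23.7%, including 10 of the 15 in the ER.

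All 3 knockouts were above every control for 5 members (6.76%, against 2.52% of all genes), Bag3, Dnajb1, Dnajb4, Hspa1b and Hspe1. All were below every control for 1 member, Dnajc9 (1.35%, against 4.88% of all genes). The mean of the 50 cytosolic members, each taken relative to its control mean, ran from -0.0286 to 0.0292 in controls and was 0.223, 0.100 and -0.0217 in the knockouts. The mean of the 15 ER members was 0.0683, 0.00115 and -0.157 against -0.0907 to 0.0674 in controls, and that of the 9 mitochondrial members was 0.153, 0.00746 and -0.0797 against -0.0685 to 0.0588.

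**Figure D3:**
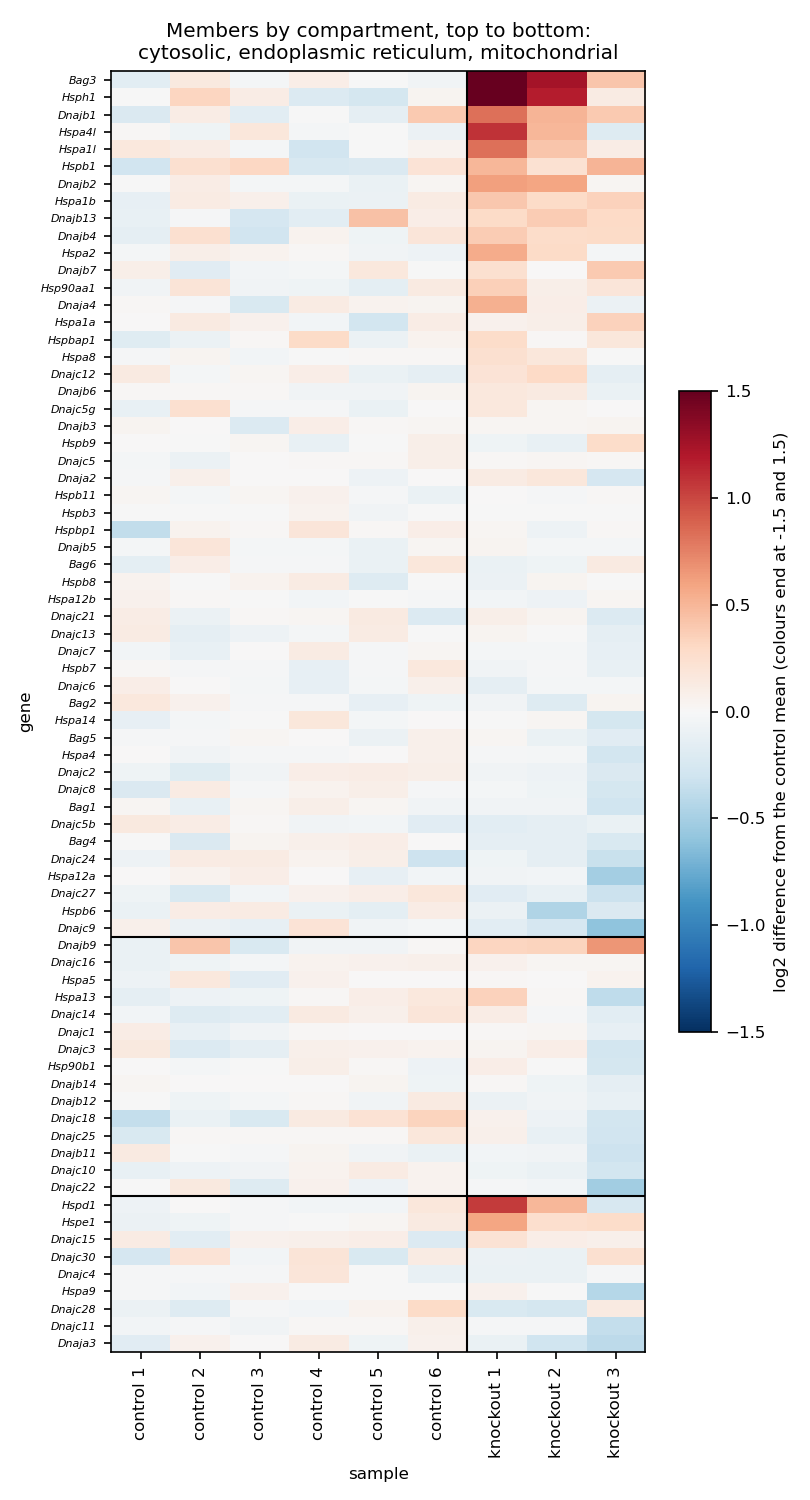
Log2 difference of each member from its control mean (colour, ending at -1.5 and 1.5) in 6 control and 3 knockout samples, with cytosolic, ER and mitochondrial members from top to bottom. The first rows of the cytosolic block are deepest in knockout replicate 1, where 23 of 74 members were above every control, and paler in replicate 3, where 32 were below every control.

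Without knockout replicate 3, the library with the high B cell markers, 5 members were called higher by limma (6.76%, against 0.604% of all genes) and none lower (against 0.216%). These were Bag3 (change 1.89, adjusted p = 0.014), Hsph1 (1.63, 0.014), Dnajb2 (0.60, 0.0092), Hspa4l (0.79, 0.034) and Hspd1 (0.77, 0.028). Their values without replicate 3 rest on 2 knockout samples. Without knockout replicate 1, where they were highest, the changes were 0.83 for Bag3, 0.65 for Hsph1, 0.31 for Dnajb2, 0.15 for Hspa4l and 0.13 for Hspd1, and no member was called. The part of B cell RNA in the values of replicate 3 was not tested.

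Related genes outside the family were read from 4 lists. Of 20 partners of HSP90 and HSP70 and heat shock factors, 18 were measured and 0 were called in either direction, with 2 higher and 1 lower at an unadjusted p of 0.05 by limma and a median of 0.036. Their mean ran from -0.0522 to 0.0318 in controls and was 0.293, 0.0838 and -0.192 in the knockouts. The smallest p belonged to Ttc4, an HSP90 adaptor (change -0.18, adjusted p = 0.23 by limma), and Ahsa2, an activator of HSP90 (0.39, adjusted p = 0.26), which read 8.14, 7.65 and 7.31 in knockouts against 7.19 to 7.55 in controls. Stip1, the adaptor that joins Hsp70 to Hsp90, chosen after its values were seen, read 10.54, 10.07 and 9.30 against controls from 9.81 to 9.99, a change of 0.08.

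Of 17 genes of the TRiC chaperonin, which folds actin and tubulin, and of its helper prefoldin, 15 were measured and 0 were called, also 0 at an unadjusted p of 0.05 by limma, with a median of -0.12. Their mean ran from -0.0928 to 0.0471 in controls and was 0.00859, -0.0193 and -0.309 in the knockouts, and the smallest p belonged to Uri1 (change -0.19, adjusted p = 0.44 by limma) and Cct5 (-0.17, adjusted p = 0.45). Of 34 further genes of ER folding and the unfolded protein response, 30 were measured with a median of -0.002, with 2 higher and 0 lower at an unadjusted p of 0.05 and 1 called by limma. Their mean ran from -0.0607 to 0.0460 in controls and was 0.0474, 0.0578 and -0.118 in the knockouts. Ddit3 (CHOP), a target of ATF4, rose by 0.42 (SE 0.07, adjusted p = 0.027 by limma), with knockouts at 8.01, 8.02 and 7.96 against 7.44 to 7.69. Of 23 genes of mitochondrial import and quality control, 22 were measured with a median of -0.101 and 21 below 0, and 0 were higher and 5 lower at an unadjusted p of 0.05 by limma. Their mean ran from -0.0468 to 0.0622 in controls and was -0.0752, -0.0657 and -0.216 in the knockouts, below all controls in each. The 1 gene called was Tomm40, the channel of the outer membrane, which fell by 0.33 (SE 0.05, adjusted p = 0.027 by limma), with knockouts at 8.71, 8.72 and 8.63 against 8.98 to 9.10.

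**Figure D4:**
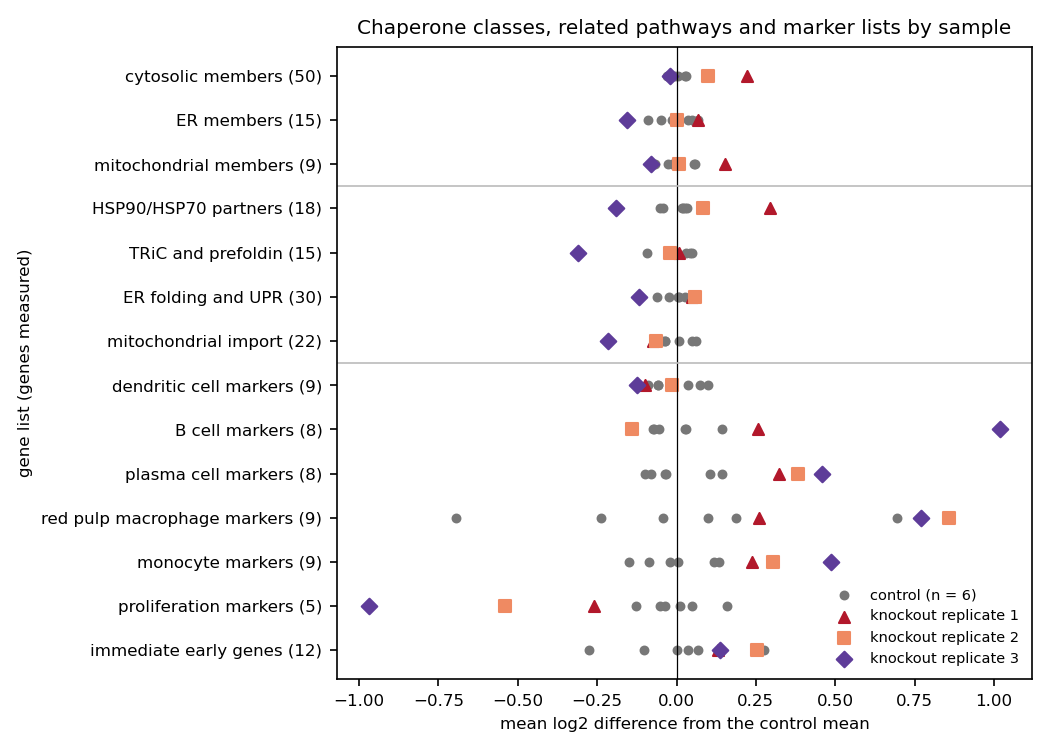
Mean log2 difference from the control mean (horizontal axis) of the 3 classes of members, the 4 related lists and 7 marker lists in each sample, with the number of genes measured in brackets, controls as grey circles and knockout replicates marked apart. Cytosolic members lie at 0.223, 0.100 and -0.0217 in knockout replicates 1 to 3, while B cell markers reach 1.02 in replicate 3 and proliferation markers reach -0.970.

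Other markers that moved with genotype or sample were read beside these values. Means of 9 monocyte markers ran from -0.150 to 0.133 in controls and were 0.238, 0.303 and 0.485 in the knockouts, with Ace (1.16) and Adgre4 (0.83) past the threshold. Means of 9 red pulp macrophage markers were 0.259, 0.857 and 0.770 in the knockouts against -0.696 to 0.693 in controls. Their median change was 0.709 and all were above 0. At an unadjusted p of 0.05 by limma, 6 were higher, against 5.50% of all genes. Means of 12 immediate early genes, which respond to cell handling, were 0.131, 0.253 and 0.138 against -0.277 to 0.274. Of these, 11 were above 0 and 2 were higher at that unadjusted p. The largest change was that of Atf3 (0.56, adjusted p = 0.053 by limma). Neither list had a gene past the threshold. Of 6 T cell, 4 NK cell and 4 neutrophil markers, 4, 4 and 4 were measured with no call. Knockout means ran from -0.138 to 0.157, -0.150 to 0.189 and 0.0323 to 0.209. Control means of the 3 lists ran from -0.103 to 0.0902, -0.0831 to 0.201 and -0.082 to 0.0897. No erythroid marker was analysed here. The part of these lists in the chaperone values was not tested.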

How the data were processed

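For each probe and each of 9 arrays the authors deposited a log2 intensity, computed with RMA per the submitters' processing notes. Its settings are not given in the sources used, and its quantile step removes shifts shared by most genes. Of 41801 rows, 34468 had values in all samples, and 23521 of these probes had 1 gene symbol in the platform's annotation, 1814 several and 9133 none. The brightest probe stood for each of 22180 genes. All 74 members were found in the RefSeq gene table, and 6 further symbols of the rule lay only on shared probes. Genotypes were compared in R 4.3.3 by a two-sided limma 3.58.1 fit without covariates (lmFit, then eBayes), with Benjamini-Hochberg adjustment over all 22180 genes and a threshold of 0.05. Scripts were tested on simulated data. Array number limits precision.

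The members and lists were chosen with earlier results of these data known. Members are named with statistics if past 0.05, among the 12 largest changes, or among the 4 brightest of a class. Hsp90aa1, Hspa2, Dnaja3 and others were named after their values were seen, as were members given by values alone. Alternatives were a block for the replicate number, array weights (statmod 1.5.0), median centring, a trended and robust eBayes, a repeated quantile normalization, genes at or above the median level, the mean of a gene's probes, and each sample left out. Promoter windows come from RefSeq (GRCm38.p6), which was matched by symbol.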

Additional observations from a re-analysis of the deposited data

Results flagged for a closer look

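Among the 24 genes checked (Cebpb and 23 named members), 2 had a control sample far from the other 5, and chance flags about 1 in 20. Hspd1 read 9.74 in control replicate 6 with the other controls between 9.49 and 9.57, a gap of 0.704 of the group's range. Hspa9 read 10.88 in control replicate 3 with the others between 10.77 and 10.81, a gap of 0.654. For 6 samples the critical value is 0.625.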

How the results depend on the processing

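Of 367 values of 23 named members under the alternatives, 343 kept their direction and their side of the threshold, 18 passed it newly (9 members) and 6 reversed (4 members). No member was called lower under any alternative. Members called higher numbered 0 as reported, 1 with a second quantile normalization (Hspe1), 1 with eBayes trend and robust fitting (Hspa1b), 6 with array weights (Bag3, Dnajb1, Dnajb2, Hspa1b, Hspe1 and Hsph1), which weighted knockout replicates 1 to 3 at 0.871, 2.10 and 0.472, 4 of 62 when only genes at or above the median level were tested (Bag3, Dnajb1, Hspa1b and Hspe1), and 0 to 5 when a sample was left out (5 without knockout replicate 3, and Dnajb9 without control replicate 2). Genes called in all went from 201 to 125 with median centring, 251 with the second quantile step, 247 with trend and robust fitting, 652 with array weights, 537 of 11090 with the level filter and 33 to 332 with a sample left out. With the mean of a gene's probes, Dnaja3 was at -0.01 and Hspa1l at 0.22. Changes near 0 turned sign. Dnajc3 was 0.03 with array weights, and with a sample left out Dnajc3 ran from -0.12 to 0.07, Hspa5 from -0.01 to 0.06, Hsp90b1 from -0.14 to 0.05 and Hspa9 from -0.21 to 0.04. The replicate numbers did not pair the samples (same-number correlations of deviations -0.143, -0.103 and 0.047, none the highest of its sample). With the replicate number as a block, 2 genes were called, Cebpb was at -1.47 (adjusted p = 0.14 by limma) and Dnajc3 at 0.02. The cause of these shifts was not tested, except that the filter tests fewer genes and a left-out sample leaves fewer arrays. Probes under the median level give compressed changes.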

Other observations

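Zfand2a, a heat- and arsenite-inducible gene of proteasome function that the rule does not take, was singled out after its values were seen. It read 8.27, 8.59, 8.43, 8.31, 8.26 and 8.38 in control replicates 1 to 6 and 9.44, 8.83 and 8.43 in knockout replicates 1 to 3, a change of 0.53 (SE 0.17, adjusted p = 0.19 by limma). Replicates 1 and 2 were above all controls and replicate 3 was among them.

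Of the 18 measured genes of the partner list, 9 were above every control in knockout replicate 1, against 14.9% of all genes, and 1 was below, against 17.8%. In replicate 2, 7 were above, against 13.7% of all genes, and 2 below, against 19.1%. In replicate 3, 1 was above, against 17.1%, and 10 were below, against 23.7%. Of the 9 above in replicate 1, 3 more are given, also chosen after their values were seen. Fkbp5, a glucocorticoid-induced HSP90 partner, read 8.51, 7.41 and 7.13 in knockouts against 7.07 to 7.59. Fkbp4 read 9.63, 9.23 and 8.87 against 9.13 to 9.22, and Chordc1 read 9.97, 9.53 and 9.05 against 9.06 to 9.33. Fkbp4 and Chordc1 in replicate 3 were below every control.

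The probe shared by Dnajc19, a J protein of the mitochondrial import motor, and its pseudogene Dnajc19-ps read 9.23, 9.31 and 9.23 in knockouts against 9.40 to 9.59 in controls, a change of -0.24 (adjusted p = 0.10 by limma over all probes). A second probe, which also names Fxr1, changed by 0.03, and these probes were chosen after their values were seen.

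The median SD over the 74 members was 0.107 in the 6 controls and 0.142 in the 3 knockouts, against 0.117 and 0.108 over all 22180 genes.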
